A study of Mus musculus with 6 samples.

Results

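The Muller glia homeostasis genes are 10 genes of the principal glial cell of the retina, and they were selected by symbol (Glul, Slc1a3, Aqp4, Kcnj10, Dkk3, Car14, Abca8a, Sox9, Sox2 and Hes1) from the 19401 genes listed in the deposited RNAseq files. All 10 were found and all 10 passed the filter of at least 10 counts in at least 3 libraries. There were 3 control libraries and 3 from efavirenz (EFV)-treated 5XFAD mice, and every library pooled the RNA of 1 retina with its RPE (retinal pigment epithelium) from each of 5 to 6 animals aged 9 months. EFV is an antiretroviral drug that at low dose stimulates CYP46A1, an enzyme that hydroxylates cholesterol. It was given in drinking water from 3 to 9 months of age at 0.08 mg/kg of body weight per the labels (the methods of the study name a somewhat higher dose), and control 5XFAD mice received water with the vehicle.

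Both groups were hemizygous 5XFAD on a B6SJL background, that is, transgenic for mutant human genes of familial Alzheimer's disease under the Thy1 promoter, which acts mainly in neurons. No mice without the transgenes were sequenced, so the comparison is of drug against vehicle within the model. The methods describe the mice as male. Expected counts summed to 23455167 to 24590278 per library.

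Muller cells span the retina from the inner limiting membrane to the photoreceptors and serve its neurons. They take up glutamate released at synapses, convert it to glutamine, siphon potassium and water to the vitreous and the vessels, and buffer the carbon dioxide made by photoreceptors. In injured retina they commonly lower some of these functions and raise intermediate filaments, a response called gliosis. Several of the 10 genes are not restricted to Muller cells: astrocytes use Slc1a3, Aqp4, Sox9 and Sox2, some amacrine cells use Sox2, and Hes1 is a general target of Notch. Because whole tissue was measured, fewer cells of a type and less RNA per cell cannot be told apart.

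Markers of Muller cells and of other cell types were set beside the 10 genes. Rlbp1, the retinaldehyde-binding protein of Muller cells and RPE, stood at 208 to 232 FPKM (fragments per kilobase of transcript scaled to the size of the library, a level per length). Rpe65, which marks RPE, was at 2.35 to 6.69 FPKM, and the 9 RPE markers examined summed to 29.4 to 66.4 FPKM. Gfap, the intermediate filament of astrocytes and reactive Muller cells, was at 3.16 to 6.67 FPKM. The summed level of the astrocyte markers was 12.5 to 18.4 FPKM, against 1214 to 1257 FPKM for the 10 genes together, of which Glul alone made up 63.3 to 65.7%. Such sums cannot show which cells the RNA came from.

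On mm10 (GENCODE M21) the genes of glutamate handling are Glul at chr1:153899944-153909723 on the plus strand and Slc1a3 at chr15:8634124-8710764 on the minus strand. The channels are Kcnj10 at chr1:172341210-172374085 (plus) and Aqp4, whose position and sequence are not shown. Car14 lies at chr3:95897768-95904691 (minus), Abca8a at chr11:110025634-110095978 (minus) and Dkk3 at chr7:112116017-112159057 (minus). The transcription factors are Sox9 at chr11:112782224-112787760, Sox2 at chr3:34650405-34652461 and Hes1 at chr16:30064384-30067796, all on the plus strand. All 10 genes are protein coding, and reads were counted over their exons. Of the exon bases of Car14, 445 (17.5%) are also exon of Aph1a on the opposite strand; the strandedness of the libraries is not given in the sources used here, and Aph1a stood at 8.92 to 10.9 FPKM against 48.3 to 52.2 FPKM for Car14. Of the 50-base words of Glul transcripts in GENCODE M21, 12.6% occur in other genes, 309 of the 412 shared words in the pseudogene Glns-ps1. No gene of that symbol is among the 19401 listed, and the effect of the shared words on the count of Glul was not tested. Sox2 lies in an intron of Sox2ot and shares no exon base with it.

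RefSeq promoter windows (GRCm38.p6, 250 bases before to 50 after the start) were at hand for 6 of the 10 genes, Glul, Slc1a3, Kcnj10, Car14, Abca8a and Sox2. They were searched on both strands for 7 short motifs, none of which contains another. The CCAAT box (CCAAT) was in 4 of the 6 windows, those of Glul, Slc1a3, Kcnj10 and Sox2, and in 37.4% of all 32851 windows. The GC box (GGGCGG) was in the same 4 windows and in 35.7% of all. The SOX motif ACAAAG was in the windows of Kcnj10 and Sox2 (18.7% of all), and ACAATG in none (12.6% of all). The N-box CACNAG, the class of site that HES proteins bind, was in Glul and Slc1a3 (42.5% of all). The RBPJ motif TGGGAA was in Abca8a (25.6% of all), and TATAAA in Slc1a3 (13.6% of all). The windows also differed in CpG dinucleotides, of which Sox2 held 27, Kcnj10 21, Glul 17, Car14 13, Abca8a 4 and Slc1a3 3, beside a median of 7 over all windows. The 120 bases before the start of 3 of the 4 genes with a CCAAT box are shown because they hold this motif, the most shared together with the GC box, and overlap no annotated exon. Capitals mark CCAAT or its reverse complement.
Kcnj10, chr1:172341090-172341209, plus strand: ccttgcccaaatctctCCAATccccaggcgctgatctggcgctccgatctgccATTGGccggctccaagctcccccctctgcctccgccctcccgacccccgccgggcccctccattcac
Sox2, chr3:34649875-34649994, plus strand: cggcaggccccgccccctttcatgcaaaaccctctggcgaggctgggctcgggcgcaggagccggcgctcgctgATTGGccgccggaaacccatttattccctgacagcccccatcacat
Slc1a3, chr15:8710808-8710927, minus strand: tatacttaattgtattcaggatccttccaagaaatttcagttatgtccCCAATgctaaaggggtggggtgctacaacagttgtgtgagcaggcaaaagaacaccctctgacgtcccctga
The boxes begin 104 and 67 bases before the RefSeq start in Kcnj10, 46 bases before it in Sox2 and 72 bases before it in Slc1a3. In Sox2 and Slc1a3 this start lies upstream of the GENCODE span given above. A match describes the letters and is no evidence of binding.

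The 10 genes covered a wide range of levels. In FPKM averaged over the 6 libraries the order was Glul (792), Dkk3 (234), Car14 (50.8), Slc1a3 (36.4), Abca8a (33.8), Aqp4 (30.1), Kcnj10 (17.3), Sox2 (15.3), Hes1 (13.6) and Sox9 (5.04). Glul alone made up 63.3 to 65.7% of the summed level in each library and stood 146 to 167 times above Sox9. Neighbours in this order were separated in all 6 libraries except Slc1a3 and Abca8a, of which Slc1a3 was the higher in 5. The ranges over the libraries also overlapped between Abca8a and Aqp4 and between Sox2 and Hes1, although the order was the same within every library.

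**Figure D1:**
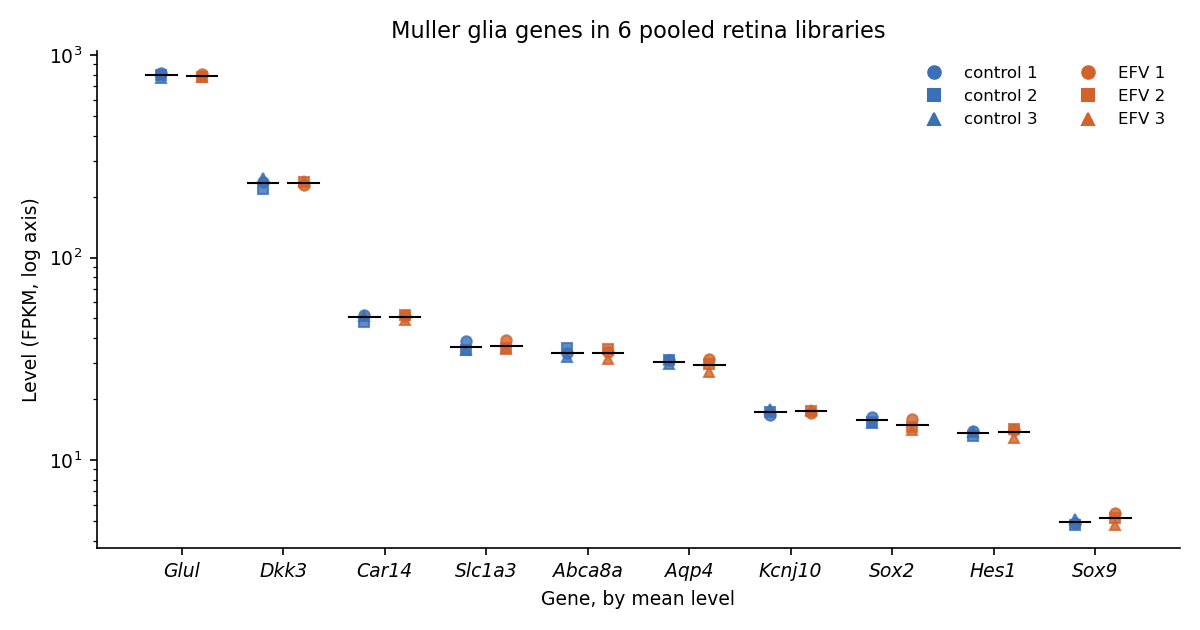
Level of each of the 10 genes (FPKM, log axis) in the 3 control (blue) and 3 EFV (orange) libraries; each symbol is 1 library and each black bar a group mean. Levels run from 4.76 FPKM for Sox9 to 813 FPKM for Glul, and the points of the 2 groups overlap in every gene.

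None of the 10 genes differed between EFV-treated and control 5XFAD mice beyond the spread between pools. By edgeR's quasi-likelihood test with Benjamini-Hochberg adjustment over all 15537 genes tested, 0 of 10 were called at an adjusted p of 0.05 (percent called over all genes, 0), with an adjusted p of 0.999 for each. At an unadjusted p of 0.05 with a change of at least 7%, the size limit the study used, 0 of 10 were past the limits (percent past them over all genes, 3.01). The groups did not overlap in CPM (counts scaled to the size of the library) in 0 of 10 genes, against 8.14% of all genes. Without a size limit, 0 of the 10 reached an unadjusted p of 0.05 by edgeR, DESeq2 or limma, and 4 did (Glul, Aqp4, Dkk3 and Sox2) under a Poisson model, which counts sampling error alone. Under that model 3901 of all 15537 genes tested did so. With 3 libraries against 3, an exact permutation test of a single gene cannot go below p = 0.10.

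The fitted differences were small. The median log2 fold change (EFV minus control) of the 10 genes was -0.01, beside 0.00 over all genes tested, and the 10 values ran from -0.09 (Sox2) to 0.05 (Sox9). The median size of the difference, regardless of sign, was 0.02 for the 10 genes and 0.04 for the 8408 genes with a mean count at least that of the lowest of them. In CPM with TMM scaling 3 of the 10 were higher in the EFV group and 7 lower; by mean FPKM 5 were higher. The 95% intervals of the 10 genes reached from a decrease of 15.3% (Sox2) to an increase of 15.7% (Sox9) and every one held 0; differences beyond these bounds lie outside the interval of each gene.

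**Figure D2:**
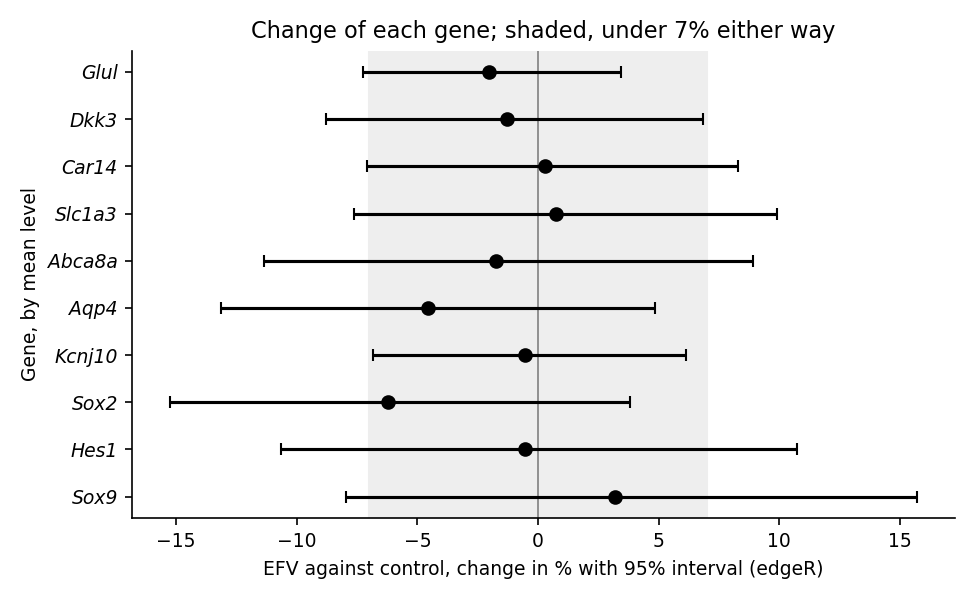
Fitted change of each gene in EFV against control (points, %) with its 95% interval from edgeR (bars), genes in order of level; shading marks changes under 7% either way. Every interval crosses 0, and the outermost bounds are -15.3% for Sox2 and 15.7% for Sox9.

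Of the genes of glutamate handling, Glul encodes glutamine synthetase, the enzyme that turns glutamate into glutamine. Its level was 813, 801 and 775 FPKM in control libraries 1, 2 and 3 and 804, 780 and 783 FPKM in EFV libraries 1, 2 and 3. The groups overlap, with the highest and the lowest value both in control libraries. The log2 fold change was -0.03 ± 0.03 (SE, n = 3 and 3 pools; 95% interval -7.25 to 3.45%). Under the Poisson model this same value had an adjusted p of 3.44e-07, since 51998 to 55317 counts per library leave little sampling error; the spread between pools, which that model leaves out, was 2.11% (coefficient of variation within groups).

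Slc1a3 encodes the glutamate transporter GLAST, through which Muller cells clear the synapse. Its level was 38.5, 34.8 and 34.9 FPKM in control and 38.9, 35.9 and 35.5 FPKM in EFV libraries. In both groups library 1 was the highest, and the groups overlap. Its log2 fold change was 0.01 ± 0.06 (95% interval -7.61 to 9.89%).

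The channels that move potassium and water did not pass either. Kcnj10 encodes Kir4.1, the inward rectifier that sets the resting potential of Muller cells and carries potassium out. Its level was 16.7, 17.3 and 17.8 FPKM in control and 17.2, 17.4 and 17.6 FPKM in EFV libraries, so that the EFV values lie inside the control range. Its fitted log2 fold change was -0.01 ± 0.04 (95% interval -6.84 to 6.15%), which makes it, with Glul, the gene with the least room for a difference. Aqp4 encodes the water channel of Muller and astrocyte endfeet. Its level was 31.1, 31.1 and 29.7 FPKM in control and 31.6, 29.7 and 27.4 FPKM in EFV libraries. EFV library 1 was the highest and EFV library 3 the lowest of all 6. The log2 fold change was -0.07 ± 0.06 (95% interval -13.2 to 4.84%), and it ran from -0.12 without EFV library 1 to -0.01 without EFV library 3. The ratio of Aqp4 to Kcnj10 FPKM was 1.86, 1.80 and 1.67 in control and 1.84, 1.71 and 1.56 in EFV libraries, with overlapping groups.

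Car14 encodes the membrane-bound carbonic anhydrase XIV, found on Muller cells and RPE. Its level was 52.2, 48.3 and 51.5 FPKM in control and 51.7, 51.8 and 49.4 FPKM in EFV libraries, and the groups overlap. A log2 fold change of 0.00 ± 0.05 was fitted (95% interval -7.11 to 8.29%). The lowest value was in control library 2, which also had the lowest sum of the RPE markers, 29.4 FPKM against 51.8 to 66.4 FPKM elsewhere. The same library had the lowest sum of the astrocyte markers (12.5 FPKM). With the RPE markers as a covariate the log2 fold change of Car14 was -0.02. What part RPE content has in the level of Car14 was not tested.

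Abca8a encodes an ABC transporter of the A subfamily. Its level was 33.6, 35.8 and 32.1 FPKM in control and 34.1, 35.4 and 31.5 FPKM in EFV libraries. It varied most among the 10 genes, with a within-group coefficient of variation of 6.65%, and the groups overlap almost fully. The log2 fold change was -0.03 ± 0.07 (95% interval -11.3 to 8.93%), and the sign turned to 0.02 without control library 2, to 0.03 without EFV library 3 and to 0.05 with the RPE covariate. Its paralog Abca8b, with which it shares 1.64% of its 50-base words at most, stood at 5.18 to 5.90 FPKM with a log2 fold change of -0.05 ± 0.06.

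Dkk3 encodes a secreted glycoprotein of the Dickkopf family, and was second in level. It stood at 237, 218 and 248 FPKM in control and 228, 235 and 238 FPKM in EFV libraries. The 3 EFV values lie inside the control range. The fit gave a log2 fold change of -0.02 ± 0.05 (95% interval -8.79 to 6.83%).

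The transcription factors had the fewest counts (441 to 976 per library). Sox2 maintains the progenitor-like state of Muller cells; its level was 16.4, 15.5 and 15.2 FPKM in control and 16.0, 14.6 and 14.1 FPKM in EFV libraries. The 2 lowest values were in EFV libraries 3 and 2, and EFV library 1 was above 2 of the control libraries. Its log2 fold change of -0.09 ± 0.06 (95% interval -15.3 to 3.80%; unadjusted p = 0.186 by edgeR, adjusted p = 0.999) was the largest in size and had the smallest p of the 10, and it ran from -0.15 without EFV library 1 (unadjusted p = 0.0526 by edgeR) to -0.05 without EFV library 3.

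Sox9, a factor of glial identity, was at 4.90, 4.79 and 5.10 FPKM in control and 5.50, 5.16 and 4.76 FPKM in EFV libraries. The EFV group holds both the highest and the lowest value. Its log2 fold change was 0.05 ± 0.07 (95% interval -7.97 to 15.7%), and it ran from -0.0040 without EFV library 1 to 0.10 without EFV library 3.

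Hes1, a repressor induced by Notch, was at 13.9, 13.2 and 13.8 FPKM in control and 14.0, 14.2 and 12.9 FPKM in EFV libraries. Here too the EFV group holds both extremes. The fit gave a log2 fold change of -0.01 ± 0.07 (95% interval -10.7 to 10.8%), and it ran from -0.04 without EFV library 2 to 0.04 without EFV library 3.

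The 10 genes were also compared between single pools. EFV library 3 had the lowest CPM of the 6 libraries in 7 of the 10 genes (Glul, Slc1a3, Aqp4, Abca8a, Sox9, Sox2 and Hes1) and the highest in 0. Among the 8408 genes of at least their abundance it was the lowest in 22.1% and the highest in 17.4%. The count depends on the unit. By FPKM the lowest Glul level was in control library 3 (774.69, against 782.74 in EFV library 3). The lowest Slc1a3 level by FPKM was in control library 2 (34.83, against 35.45 in EFV library 3). The median deviation of the 10 genes from their own means in log2 CPM was -0.08 in EFV library 3 and -0.0042 to 0.041 in the others. Kcnj10 and Dkk3 were at 0.00 and 0.01 in EFV library 3, so the deviation was not common to all 10. In CPM, EFV library 1 had the highest value in 3 genes and the lowest in 0, and control library 2 the highest in 3 and the lowest in 2. Without EFV library 3 the median log2 fold change of the 10 genes was 0.01 in place of -0.01, and without each of the other libraries it was -0.03 to -0.01; 0 of 10 passed either limit in any of these fits.

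The same library stood apart in genes of the Y chromosome. The summed level of Kdm5d, Uty, Ddx3y and Eif2s3y was 55.4, 52.2 and 51.9 FPKM in control and 69.8, 55.7 and 25.2 FPKM in EFV libraries, although the pools are described as male. EFV library 1, the highest in Y-linked RNA, also had the highest median deviation of the 10 genes (0.04), and EFV library 3, the lowest, the lowest. What part the makeup of the pools has in the levels of the 10 genes was not tested. Control library 3 stood apart in lens markers, with a sum of 436 FPKM against 5.04 to 16.7 FPKM elsewhere. Without both of these libraries, a choice made after the data were seen, 0 of 10 genes passed either limit.

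**Figure D3:**
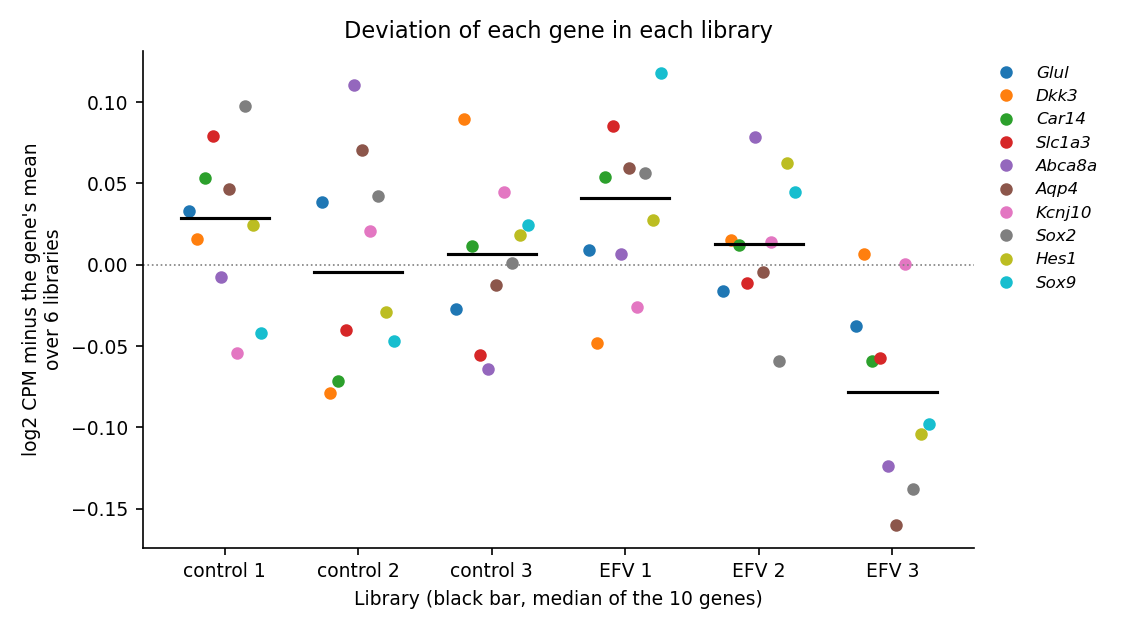
Deviation of each of the 10 genes (colours) from its own mean over the 6 libraries, in log2 CPM, by library; black bars are the medians of the 10 genes. In EFV library 3 the median is -0.08 and 8 of 10 points lie below 0, with Kcnj10 and Dkk3 near 0.

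Within groups the 10 genes varied as other genes of their abundance did. Their coefficients of variation in CPM ran from 2.11% (Glul) to 6.65% (Abca8a), with a median of 4.82% beside 4.77% for the 8408 genes at least as abundant as the lowest of them. The highest library exceeded the lowest by a factor of 1.05 (Glul) to 1.18 (Sox2), with a median of 1.12 beside 1.13. The genes whose profile over the 6 libraries was most like the mean standardized profile of the 10, by Pearson's r of log2 CPM over these 6 libraries, were Caprin1 (r = 0.994), Fam60a (r = 0.993) and a transcript that the files give without a gene symbol (r = 0.990). These profiles share the low value in EFV library 3; Caprin1 was at 37.8 FPKM there and at 42.7 to 45.2 FPKM in the others.

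Other genes of the same functions were examined as lists, 113 genes in all, of which 106 were tested. None was called at an adjusted p of 0.05 by edgeR (count at an unadjusted p of 0.05 with a change of at least 7%, 3, all higher in EFV), which is 2.83% beside 3.01% of all genes. The groups did not overlap in 5 of the 106 (4.72%, beside 8.14% of all genes). The median log2 fold change over the 106 was 0.00, with 52 higher and 54 lower.

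In the glutamate and glutamine list 0 of 13 genes were past the limits, and Slc38a3, the glutamine exporter SN1 and the most abundant of them, had a log2 fold change of 0.01 ± 0.05 at 258 ± 6.47 FPKM in control and 262 ± 12.1 FPKM in EFV (mean ± SD, n = 3 pools each). In the potassium and water list 0 of 11 tested genes were past them. The most abundant was Atp1b2, a sodium pump subunit, at 727 ± 58.3 and 701 ± 57.4 FPKM with a log2 fold change of -0.07 ± 0.08. In the Notch list 0 of 16 and among glial and progenitor transcription factors 0 of 14 were past the limits. The most abundant gene of the Notch list was the ligand Jag1, with a log2 fold change of 0.09 ± 0.06. Of the Dickkopf and Wnt antagonists 6 of 10 were tested and 0 passed; Dkk1, Dkk2 and Dkk4 did not reach the count filter, so that Dkk3 was the abundant Dickkopf gene of this tissue. Kremen1, a Dickkopf receptor and the most abundant of the list, had a log2 fold change of -0.01 ± 0.09. Among ABCA transporters 0 of 8 passed, and Abca4 of photoreceptors, the most abundant, had -0.05 ± 0.06.

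The 3 genes past the unadjusted limits were Car8, Car12 and Edn2. Car8, a carbonic anhydrase-related protein without enzyme activity, was at 10.99, 11.05 and 10.82 FPKM in control and 11.95, 12.06 and 11.64 FPKM in EFV libraries, with no overlap (log2 fold change 0.10 ± 0.04, unadjusted p = 0.0393 and adjusted p = 0.999 by edgeR). Car12, a membrane-bound carbonic anhydrase of low level here, was at 0.73, 0.47 and 0.86 FPKM in control and 0.86, 1.02 and 1.42 FPKM in EFV libraries (0.66 ± 0.26, adjusted p = 0.999 by edgeR). These were 2 of 12 tested genes of acid-base transport, whose most abundant gene, Bsg (basigin, a partner of lactate transporters), had -0.05 ± 0.04. All 9 RPE markers had a positive log2 fold change, with a median of 0.43, and control library 2 was lowest in both Car12 and the RPE sum. With the RPE markers as a covariate the log2 fold change of Car12 was 0.24 (unadjusted p = 0.33 by edgeR) and that of Car8 0.12 (unadjusted p = 0.0459). Because the RPE markers ran higher in the EFV group, treatment and RPE content cannot be told apart by this covariate. The same limit holds for every other gene fitted with it. Car12 missed an unadjusted p of 0.05 in 7 of the 19 alternatives and Car8 in 6. Of the 6 fits that left out 1 library, 4 lost Car12 (those without control 1, control 2, EFV 2 or EFV 3) and 4 lost Car8 (those without control 1, control 3, EFV 1 or EFV 2). Over these fits the unadjusted p by edgeR ran from 0.0157 to 0.146 for Car12 and from 0.0255 to 0.135 for Car8. DESeq2 gave an unadjusted p of 0.12 for Car8. Without both control library 3 and EFV library 3 neither passed (unadjusted p = 0.0534 for Car12 and 0.0634 for Car8, edgeR), and Car12 also missed with limma on all listed genes (unadjusted p = 0.0524).

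Among the genes of glial reactivity 1 of 13 tested genes was past the limits. Edn2, the endothelin that stressed photoreceptors release, was at 1.23, 0.99 and 1.52 FPKM in control and 2.52, 1.70 and 2.05 FPKM in EFV libraries, with no overlap (log2 fold change 0.72 ± 0.23, unadjusted p = 0.012 and adjusted p = 0.999 by edgeR). With the RPE covariate Edn2 had a log2 fold change of 0.64 (unadjusted p = 0.0592 by edgeR), and without EFV library 1 one of 0.57 (unadjusted p = 0.0548). Gfap was at 4.15, 3.16 and 4.60 FPKM in control and 6.67, 3.65 and 5.58 FPKM in EFV libraries. Its groups overlap, and it did not pass (0.40 ± 0.21, adjusted p = 0.999 by edgeR). The study, whose threshold was based on the Poisson distribution, lists Gfap, Edn2 and Car12 as higher with EFV, and does not list Car8. Vim, vimentin, was at 57.7, 45.0 and 84.9 FPKM in control and 57.8, 53.0 and 59.3 FPKM in EFV libraries (-0.16 ± 0.18); its highest value was in control library 3, which was also high in lens markers. Of the other Muller markers 0 of 15 were past the limits, the most abundant being Apoe at 437 ± 37.6 and 428 ± 33.8 FPKM (-0.05 ± 0.07), and Rlbp1 had -0.03 ± 0.05.

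**Figure D4:**
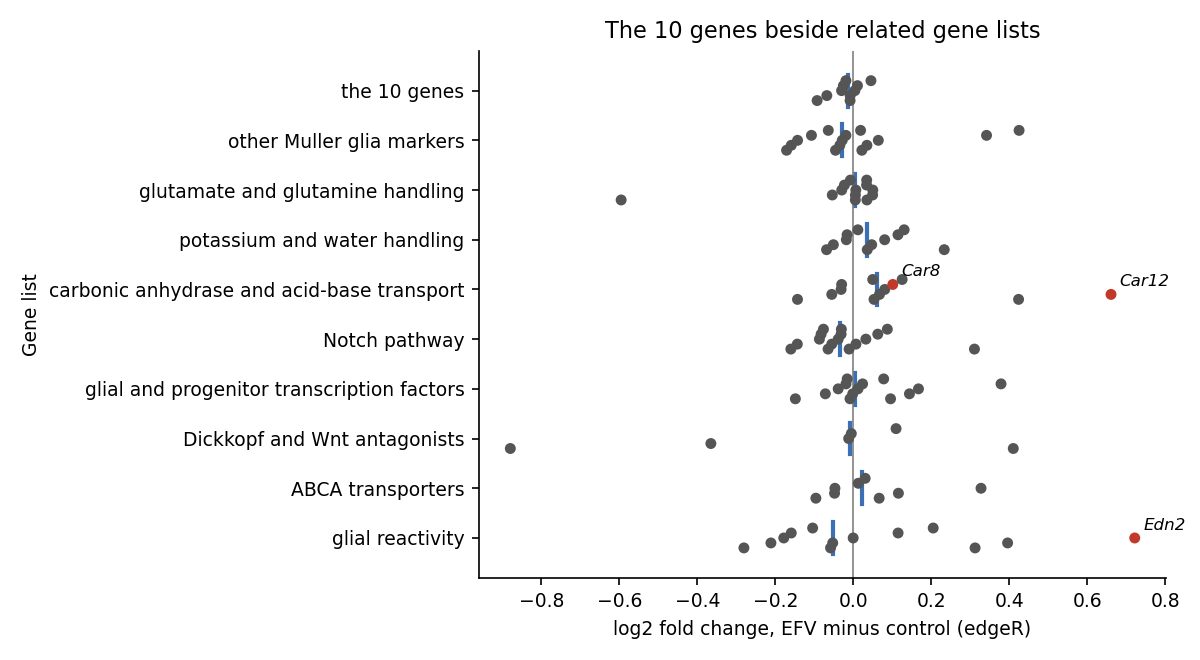
log2 fold change (EFV minus control, edgeR) of every tested gene of the 10 and of 9 related lists; each point is a gene, blue ticks are list medians, and red points with names passed the unadjusted limits. The 10 genes lie between -0.09 and 0.05, and the named genes are Car8, Car12 and Edn2.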

How the data were processed

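The authors used Bowtie2 2.2.5 to align the reads, after filtering, to mm10 and estimated expected counts with RSEM 1.2.12, which divides reads among genes; these are deposited without normalization, beside FPKM values, which the authors divided by gene length and library total. The submitters' processing notes also name HISAT2 2.0.4. Expected counts were rounded. The test included genes that reached 10 counts in 3 or more libraries and was run with edgeR 4.0.16 (R 4.3.3; quasi-likelihood, TMM scaling, group as the only term, two-sided, Benjamini-Hochberg adjustment). Alternatives were other scalings and filters, DESeq2 1.42.0, a Poisson model, limma 3.58.1 on log2(FPKM + 0.1) or log2(FPKM + 1), the replicate number as a block, an RPE marker covariate, and leaving out libraries. The code was tested on simulated data. Each library is a pool, so every test but the Poisson model judges the group difference against the spread between pools. The genes and lists were chosen with earlier results of these data known. From the lists the text names each gene past the unadjusted limits, the most abundant gene of each (1 is not reported here), Abca8b, Gfap, Vim and Rlbp1, and the 3 genes most like the 10 in profile; Rpe65, Aph1a and the Y-linked genes were named after their values were seen. Levels are compared between genes only in FPKM.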

Additional observations from a re-analysis of the deposited data

How the results depend on the processing

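In 18 of the 19 alternatives 0 of the 10 genes were called at an adjusted p of 0.05, and in all 19, 0 were past the unadjusted limits; the exception was the Poisson model, which called 2 (Glul, log2 fold change -0.03, and Aqp4, -0.07). Glul, Aqp4 and Sox2 kept a negative sign in all 19, and the sign of the other 7 turned in at least 1. With total counts only, Kcnj10 was at 0.0075 and Hes1 at 0.0072. With limma Kcnj10 was at 0.0087 for the pseudocount of 0.1, with or without the filter, and at 0.0082 for the pseudocount of 1, and Hes1 at 0.0082 and 0.0077. With the RPE covariate Car14 was at -0.023 and Abca8a at 0.053. Leaving out 1 library at a time, or both control library 3 and EFV library 3 together (a choice made after the data were seen), the ranges were -0.051 to -0.019 for Glul, -0.12 to -0.0076 for Aqp4, -0.15 to -0.048 for Sox2, -0.030 to 0.055 for Slc1a3, -0.037 to 0.013 for Kcnj10, -0.063 to 0.022 for Dkk3, -0.031 to 0.040 for Car14, -0.073 to 0.028 for Abca8a, -0.0040 to 0.13 for Sox9 and -0.043 to 0.046 for Hes1. Without both, Kcnj10 was at 0.0096 and Dkk3 at 0.014. By CPM with TMM scaling 3 of the 10 genes were higher in EFV, against 5 by FPKM.

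Of the 106 related genes tested 3 passed the unadjusted limits, 21 under the Poisson model, 5 with the RPE covariate and 5 without both libraries. Leaving out 1 library, 2 to 6 passed (6 without control library 2, 5 without control library 3). The shares of all genes past these limits were 3.01% in the main fit, 14.8% under the Poisson model, 2.68% with the RPE covariate and 4.29% without both libraries. Leaving out 1 library they were 2.50% (without control library 2) to 3.71% (without control library 1), and 3.41% without control library 3. Over all genes the adjusted calls were 0 by edgeR, 11 by DESeq2 and 2043 by the Poisson model, and 1 without EFV library 1. The cause was not tested.

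Replicates of the 2 groups share numbers. The correlations of same-numbered libraries were 0.125, 0.0832 and 0.0992, so not every pair was over 0.1 and the number was not taken as a pairing, although every library correlated best with its own number. With the replicate number as a block, 0 of the 10 genes were called, their median log2 fold change was -0.01, and 514 genes over all passed the unadjusted limits, against 467. Relative to its count, Glul, at 51998 to 55317 counts per library, carries the least sampling error of the 10 genes. Sox9 and Hes1, at 441 to 552 counts, carry the most. What part the number of pools and the depth have in the width of the intervals was not tested.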
